A study of Sus scrofa with 16 samples.

Results

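The untreated day 10 endometrium was described from 4 of the 16 small RNA libraries of a study of oral oestradiol in pregnant sows (Sus scrofa). The 4 libraries were chosen by their label alone: they are the control group, which received 0 µg of oestradiol-17β per kg body weight per day. These adult sows ate the ethanol carrier without hormone from insemination until day 10 of pregnancy, so the carrier is common to all 4. After the uterus had been flushed with phosphate-buffered saline, pieces of whole endometrium, the lining of the uterus, were frozen, RNA was taken up in TRIzol, and libraries were made with a NEBNext small RNA set. Per the labels the 4 libraries are 4 control samples of 1 group, numbered sow 1 to sow 4 here. No dose group was compared, no test between groups was run, and every error below is the standard deviation over n = 4.

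MicroRNAs (miRNAs) are short RNAs cut from both arms of a hairpin precursor, first by Drosha in the nucleus and then by Dicer in the cytoplasm. One strand of the resulting duplex is kept by an Argonaute protein and pairs with messenger RNAs, mainly through its seed, the bases that follow its first base. Strands from the hairpin's 5′ arm are named 5p and those from its 3′ arm 3p. Around day 10 of pregnancy the pig's embryos are still free in the uterine lumen and the endometrium is receiving their first signals. The tissue holds luminal and glandular epithelium, stroma, blood vessels and immune cells, and several miRNA families are typical of one of these compartments.

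The files hold each distinct read and its count, and no miRNA table was used here. Reads of 20 to 26 nt that share their first 20 bases were therefore taken as 1 miRNA group, printed as its leading (most abundant) read of 20 to 25 nt and named by the family whose seed equals its bases 2 to 8. Groups with a known seed were left out when they looked like 1-base variants of a group 20 times larger or like pieces of a longer RNA. Copies shifted by up to 2 bases from any larger group with a listed seed were left out too, as were shifted copies of a group 20 times larger. Of 2977 groups with a listed seed, 305 were kept, from 198 seeds. Where several groups share a seed, they are numbered as members by abundance. The family name is read from the seed and the paralogue name from textbook sequences, not from a table.

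The leading reads below carry most of the miRNA signal, with the seed in capitals and the other bases in lower case, written as DNA from 5′ to 3′. They are ordered by family, so that groups with one seed stand together and the bases that separate paralogues can be seen downstream of it.
miR-21-5p: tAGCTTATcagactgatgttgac
miR-143-3p: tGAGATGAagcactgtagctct
let-7-5p member 1 (let-7i): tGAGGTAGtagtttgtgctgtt
let-7-5p member 2 (let-7a): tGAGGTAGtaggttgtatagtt
let-7-5p member 3 (let-7g): tGAGGTAGtagtttgtacagtt
let-7-5p member 4 (let-7b): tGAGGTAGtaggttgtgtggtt
let-7-5p member 5 (let-7f): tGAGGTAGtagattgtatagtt
miR-10-5p member 1 (miR-10b): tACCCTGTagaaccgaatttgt
miR-10-5p member 2 (miR-10a): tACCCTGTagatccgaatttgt
miR-99-5p member 1 (miR-99a): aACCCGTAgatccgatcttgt
miR-99-5p member 2 (miR-100): aACCCGTAgatccgaacttgt
miR-125-5p member 1 (miR-125b): tCCCTGAGaccctaacttgtga
miR-30-5p member 1 (miR-30a): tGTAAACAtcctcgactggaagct
miR-30-5p member 2 (miR-30d): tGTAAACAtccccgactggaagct
miR-30-5p member 3 (miR-30e): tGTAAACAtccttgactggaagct
miR-148-3p member 1 (miR-148a): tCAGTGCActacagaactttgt
miR-26-5p member 1 (miR-26a): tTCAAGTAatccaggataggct
miR-27-3p member 1 (miR-27b): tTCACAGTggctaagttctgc
miR-200a-3p: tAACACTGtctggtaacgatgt
miR-200b-3p member 1 (miR-200b): tAATACTGcctggtaatgatga
miR-200b-3p member 2 (miR-200c): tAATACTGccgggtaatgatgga
miR-34-5p member 1 (miR-34c): aGGCAGTGtagttagctgattgc
miR-199-5p member 1 (miR-199a): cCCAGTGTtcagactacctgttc
miR-199-3p: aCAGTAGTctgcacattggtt
miR-126-3p: tCGTACCGtgagtaataatgcg
miR-101-3p: tACAGTACtgtgataactgaag

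The libraries held 8386122, 8370834, 7363900 and 11084974 reads in sows 1 to 4, between 17 and 49 nt long. Groups named as miRNAs took 2684827, 2848470, 2880057 and 3506168 of these reads. They made up 61.9, 62.5, 57.7 and 50.9% of the reads of 18 to 26 nt, 58.2 ± 5.34% on average. Sow 4, the deepest library, had the lowest share. Levels are given as counts per 1000000 assigned reads (CPM), at which 3 reads, the limit that a count of 0 allows, equal 0.856 to 1.12 CPM. The reads carry no molecular identifiers, so such limits cover counting error only.

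All 4 libraries had their main peak at 22 nt, which held 17.5, 18.3, 22.3 and 18.3% of all reads. Reads of 17 to 19 nt, too short to be assigned, made up 5.89, 6.17, 9.99 and 13.97%. Reads of 40 to 49 nt made up 11.3, 12.6, 1.84 and 2.83%. The libraries thus fell into pairs by length: sows 1 and 2 held fewer short and more long reads, and sows 3 and 4 the opposite. The length profile is a property of the libraries whose part in the values below was not tested.

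**Figure D1:**
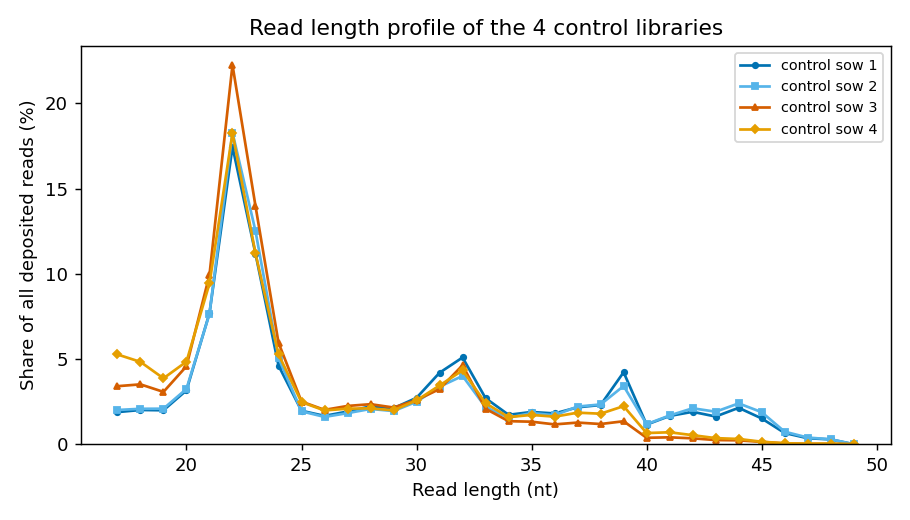
Share of all deposited reads (%) at each read length (nt) in the 4 control libraries, 1 line per sow. All 4 peak at 22 nt, sows 3 and 4 lie higher at 17 to 19 nt, and sows 1 and 2 lie higher from 40 nt on.

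The repertoire was steep. The most abundant group, miR-21-5p, a miRNA common in many tissues and known from growth and inflammation, had 182486, 249964, 202846 and 154365 CPM. It thus took 15.4% of the assigned reads in sow 4 and 24.996% in sow 2, the lowest and the highest of the 4. The 3 leading groups took 33.9 ± 5.18% of the assigned reads, the 10 leading groups 57.0 ± 3.69% and the 30 leading groups 84.6 ± 1.205%. At a mean of 10 CPM or more, 249 groups were present, and 230 of them reached 10 CPM in every sow. Of the 249, 162 had 100 CPM or more and 76 had 1000 or more.

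miR-143-3p, from a hairpin cluster known from smooth muscle and other mesenchymal cells, came next with 106189, 100718, 76462 and 82319 CPM. It was higher in sows 1 and 2 than in sows 3 and 4, an order that 33 of the 162 groups with 100 CPM or more had, with 20 in the opposite order. The 2 leading groups with the miR-10 seed, a family encoded within the HOX gene clusters, differ from each other within the printed read by 1 base. The miR-10b group had 47312, 54616, 58365 and 41843 CPM. The miR-10a group had 25672, 32668, 38446 and 38258 CPM, below the miR-10b group in each of the 4 sows. The 2 groups came closest in sow 4.

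The let-7 seed, whose family is known to rise with differentiation, was spread over 9 groups. They summed to 144320, 135907, 155811 and 163583 CPM, so that let-7 was the second family after miR-21 by its mean, 149905 ± 12235 CPM. In sow 4 let-7 stood above miR-21-5p. The let-7i group led with 37427, 55172, 52891 and 45261 CPM. The let-7a group had 35340, 21114, 31872 and 38787 CPM, and it was lowest where let-7i was highest, in sow 2. The let-7f group, at 19261, 18436, 19502 and 19725 CPM, had the smallest coefficient of variation (SD over mean) of the 162 groups with 100 CPM or more, 2.93%.

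The miR-30 family, known from epithelia and other differentiated cells, summed to 62943, 47908, 56272 and 77618 CPM over 6 groups, lowest in sow 2 and highest in sow 4. Its leading members, the miR-30a group at 27296 ± 5627 CPM and the miR-30d group at 17560 ± 6426 CPM, shared that order at both ends. The miR-30e group went the other way, with 10309, 10624, 10243 and 8344 CPM and its lowest value in sow 4. The miR-148a group had 28594, 38407, 34670 and 36616 CPM and was lowest in sow 1. The miR-99a group had 26456, 21473, 26237 and 37512 CPM, and the miR-100 group, which differs from it within the printed read at 1 base, 5359, 5252, 5044 and 6359 CPM. Both were highest in sow 4. The miR-26a group stood at 27551 ± 3902 CPM and the miR-27b group at 27228 ± 5612 CPM, and the order of the neighbouring ranks from 8 to 11 did not exceed the spread between sows.

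**Figure D2:**
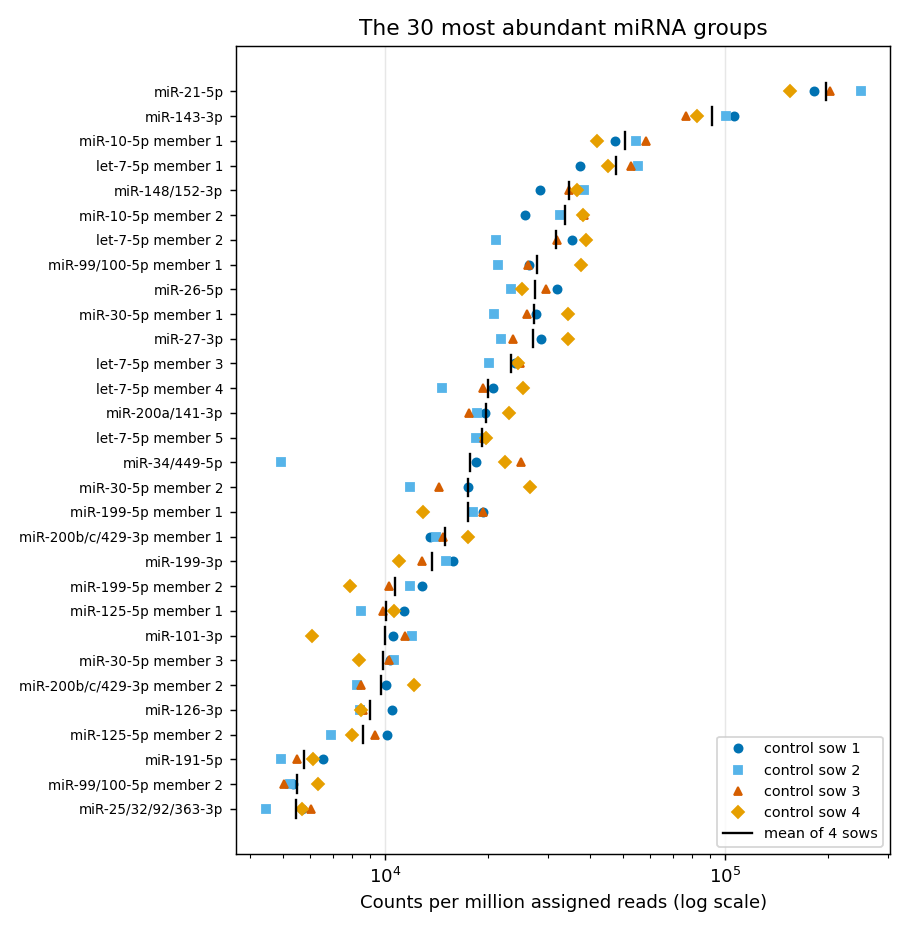
Level of the 30 most abundant miRNA groups in counts per 1000000 assigned reads (log axis), with 1 symbol per sow and a bar at the mean of 4 sows. miR-21-5p lies apart from the rest with a mean of 197415 CPM, and the leading group with the miR-34 seed has 1 low symbol, sow 2 at 4924 CPM.

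Marker families were then summed by compartment. In whole tissue, fewer cells of a type and less of its RNA per cell cannot be told apart, so these sums describe RNA and not cell numbers. The 6 lists of endometrial compartments (epithelial, stromal, smooth muscle, endothelial, erythroid and leukocyte) held 24.9, 22.1, 21.1 and 22.7% of the assigned reads. The smooth muscle list was the largest of them by its mean, with 45.7, 48.6, 38.3 and 38.4% of that sum. The epithelial list took 29.02, 25.1, 35.2 and 41.1%, and it exceeded the smooth muscle list in sow 4 alone.

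The epithelial list holds the miR-200 family, which keeps epithelial cells from turning mesenchymal, the miR-34b/c and miR-449 hairpins, known from multiciliated cells, and miR-203, miR-205, miR-375 and the miR-183 and miR-192 clusters. All 15 of its seeds were found, in 28 groups, and they summed to 7.21, 5.54, 7.43 and 9.31% of the assigned reads. Sow 2 was lowest and sow 4 highest. Of the miR-200 family, the miR-200a group had 19681, 18644, 17586 and 23066 CPM. The miR-200b group had 13557, 14105, 14801 and 17558 CPM. The miR-200c group had 10035, 8271, 8502 and 12167 CPM, so that each of the 3 was highest in sow 4. In the miR-200c group, sow 1 also stood above sows 2 and 3. A group with the letters of miR-141-3p, 6692 reads in sum, was left out as a 1-base variant of the miR-200a group and is not in the list's sum.

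Several other epithelial miRNAs varied more between sows. The miR-34c group had 18464, 4924, 25058 and 22423 CPM, and sow 2 stood below the others. The partner strand of that pair of hairpins, miR-34b/c-3p (aATCACTAattccactgccatc), had 418, 77.2, 348 and 330.0 CPM, and a group with the same seed and the letters of miR-449a (tGGCAGTGtattgttagctggt) had 246, 84.3, 358 and 378 CPM. Of the 6 groups with these seeds, 5 were lowest in sow 2. The exception, with the letters of miR-34a (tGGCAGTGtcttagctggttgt), which lies in another hairpin, had 244, 391, 210.8 and 248 CPM and was highest in sow 2. miR-375-3p (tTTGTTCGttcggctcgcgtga), known from secretory and endocrine epithelium, had 1827, 957, 1526 and 5151 CPM. miR-203-3p (gTGAAATGtttaggaccactag), known from stratified epithelium, had 724, 2760, 648 and 4055 CPM, the largest coefficient of variation of the 162 groups, 81.0%. Sows 2 and 4 were high in it and sows 1 and 3 low, a split that does not follow the length profile. miR-182-5p, of the miR-183 cluster, had 2596, 1756, 1677 and 3136 CPM. Of the 2 groups with the miR-96-5p seed, the leading one was steadier, with 552, 484, 492 and 584 CPM. Its letters downstream of the seed are not those of miR-96, which member 2 has, so it cannot be taken as part of that cluster.

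The stromal list, miR-199 and miR-214, which share a host transcript in mesenchymal cells, summed to 4.85, 4.57, 4.30 and 3.21% of the assigned reads, with sow 4 lowest. The miR-199a-5p group had 19377, 18141, 19414 and 12922 CPM. miR-199-3p, the strand from the other arm, had 15851, 15105, 12856 and 10966 CPM, and both arms were lowest in sow 4. miR-214-3p, at 357, 485, 303 and 305 CPM, was far less abundant than either arm of miR-199.

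The smooth muscle list, miR-143 and miR-145 of one cluster, summed to 11.4, 10.7, 8.09 and 8.70%. Nearly all of it was miR-143-3p. Its neighbour miR-145-5p had 6733, 6182, 4093 and 4170 CPM, and it was higher in sows 1 and 2, as miR-143-3p was. The endothelial list rests on the 2 arms of miR-126, which lies in the endothelial gene EGFL7. miR-126-3p had 10488, 8436, 8615 and 8498 CPM, so that sow 1 stood above 3 nearly equal values, and miR-126-5p had 491, 339, 398 and 293 CPM.

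Blood cell miRNAs were low. The erythroid list summed to 0.195, 0.223, 0.257 and 0.292% of the assigned reads, mostly through miR-451-5p, a miRNA of red cells that Argonaute and not Dicer cuts, with 1780, 2118, 2263 and 2720 CPM. Of this list, no group with the miR-486-3p seed was kept. The leukocyte list summed to 0.132, 0.152, 0.145 and 0.273%, with sow 4 above the others. That height came from the 2 groups with the miR-146 seed, which respond to NF-κB in immune and epithelial cells alike. The miR-146b group had 366, 539, 525 and 1670 CPM and the miR-146a group 203, 210, 177 and 474 CPM. The other leukocyte miRNAs were not highest in sow 4: miR-150-5p had 193, 221.5, 160 and 188 CPM, miR-223-3p 189, 117, 226 and 121 CPM, and miR-142-3p 118, 111, 108 and 68.2 CPM. The level of miR-155-5p was 67.0, 58.6, 61.8 and 55.9 CPM.

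Lists for tissues outside the endometrium served as a check of the label. Liver-specific miR-122-5p was at 29.1, 24.6, 32.6 and 37.9 CPM. Of the skeletal and heart muscle list, the leading miR-1 group had 1148, 612, 574 and 412 CPM and miR-133-3p 89.0, 43.2, 18.7 and 41.4 CPM, while no group with the miR-208 seed was kept. The neural list stood at 0.556 ± 0.158%, from miR-9-5p with 3066, 1872, 4093 and 3378 CPM and from miR-128-3p, which many tissues hold. The neuronal miR-124 and miR-137 were not among the kept groups. No group carried the seed of the embryonic miR-302 and miR-372 families as its own: the 4 groups with that seed were shifted forms of miR-17 family members. The epithelial, stromal and smooth muscle lists each exceeded every one of these lists in every sow. The erythroid and leukocyte lists did not: the neural list, with 0.529, 0.344, 0.658 and 0.693%, exceeded both in every sow. The skeletal and heart muscle list also exceeded the leukocyte list in sow 1, with 0.153 against 0.132%.

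**Figure D3:**
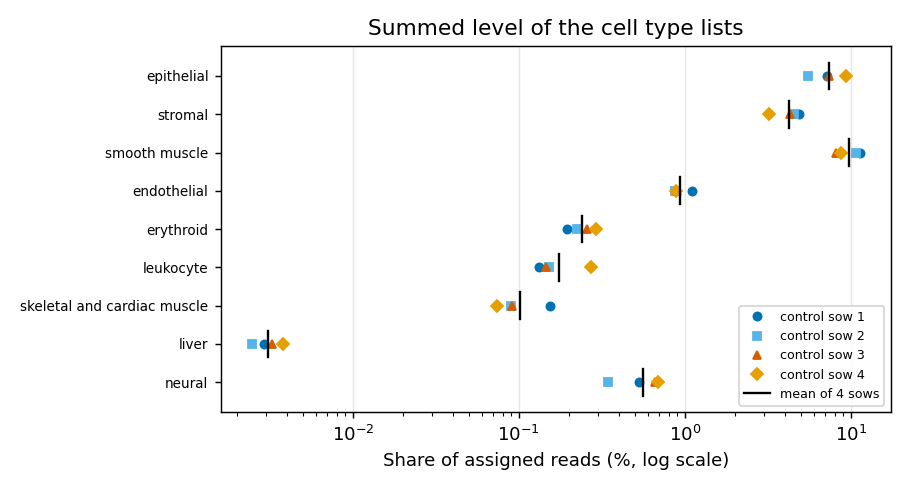
Summed level of 9 cell type lists as a share of assigned reads (%, log axis), 1 symbol per sow and a bar at the mean of 4 sows. The smooth muscle, epithelial and stromal lists lie between 3.21 and 11.4% in every sow, and the liver list, miR-122-5p alone, lies near 0.0031%.

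Functional lists filled in the rest of the picture. The lineage of miR-10, miR-99 and miR-125 held 12.9, 13.3, 15.03 and 14.6% of the assigned reads, close to the let-7 list with its 14.5, 13.6, 15.6 and 16.4%. The cluster family of miR-23, miR-27 and miR-24 held 4.01 ± 0.688%. The growth-linked families around miR-17 and miR-92 held 1.46 ± 0.162%, led by the miR-92a group with 5706, 4455, 6058 and 5691 CPM. Of these lists, the minor strands let-7c-3p, miR-20a-3p and miR-125b-2-3p had no kept group. miR-22-3p, which targets the oestrogen receptor ESR1, had 4314, 3527, 4116 and 4423 CPM. The miR-221-3p group, of which the same is known, had 1040, 894, 1062 and 801 CPM. Both were present in every sow without added hormone. A group with the same seed and the letters of miR-222-3p, 4988 reads in sum, was left out as a piece of a longer RNA.

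The imprinted DLK1-DIO3 region, whose miRNAs are made from the maternal chromosome and are typical of placenta, brain and mesenchymal cells, was represented by 28 of its 30 listed seeds in 31 groups. They summed to 0.761, 0.903, 0.736 and 0.684% of the assigned reads. miR-381-3p alone, at 4341, 5231, 4152 and 3654 CPM, made up more than any other member, and miR-127-3p followed with 1190, 1513, 1342 and 1354 CPM. Both were highest in sow 2. The seeds of miR-433 and miR-654 were the ones with no kept group.

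Sows resembled each other in rank order. Over the 249 groups, Spearman's rho between 2 sows ran from 0.972 to 0.986 over the 6 pairs, a description over groups that share a library and its length profile. The median coefficient of variation of the 162 groups with 100 CPM or more was 18.01%, with 91 groups under 20% and 9 over 50%. Of the 10 most variable groups, 6 were in the epithelial list, to which 17 (10.5%) of the 162 groups belong. Beside those already named, miR-504-5p had 317, 148, 140 and 600 CPM and the group with the seed of miR-192 and miR-215, of the kidney and gut epithelium, 223, 144, 62.8 and 61.9 CPM. The miR-92b group had 1208, 447, 1189 and 1789 CPM and was lowest in sow 2, as the miR-34c group was. The stable end, beside let-7f, held miR-99-3p at 151 ± 7.99 CPM, miR-28-3p at 1039 ± 59.7, miR-320-3p at 1637 ± 106.5 and miR-185-5p at 1017 ± 75.9 CPM.

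The 5p arm supplied 67.1, 68.5, 71.3 and 67.8% of the assigned reads, 68.7 ± 1.84% on average, and miR-21 and let-7 were the largest families on that arm. When each of the 45 hairpin families with both arms counted once, the mean 5p share was 50.8%. Of the 43 families with 1000 reads or more, 20 were led by 5p in every sow and 22 by 3p in at least 3 sows and never by 5p. In 11 of them the lesser arm held under 1% in every sow. miR-143 was among these, with 0.343 ± 0.0915% on 5p, and so was miR-10, with 0.135% on 3p. miR-24 had 0.0618% of its reads on 5p.

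In 6 families the lesser arm held over 25% in every sow. miR-199 is the most abundant of the families with both arms well filled: 5p took 67.0, 66.5, 69.8 and 65.5% of the reads. In miR-142, a hairpin of blood cells, 5p took 41.9, 36.6, 43.7 and 40.7%. The leading arm differed between sows in miR-361 alone, where 5p took 54.7% in sow 1 but 37.9, 43.6 and 37.9% in the others. In miR-130 the arms were level in sow 3 (50.0%), and 3p led in the other sows. That share sets 1 group on 5p against 5 groups on 3p with the seed of miR-130 and miR-301, so it is not that of a single hairpin. miR-423 gave 27.4 ± 2.42% on 5p, miR-151 8.73 ± 2.50% and miR-126 4.02 ± 0.536%.

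These arm shares count reads with the exact start of a group. When forms that start up to 2 bases earlier or later were counted as well, 5p took 59.2, 61.8, 62.7 and 68.4% in miR-142 and so became the leading arm in every sow. In miR-361 it took 42.2, 30.4, 33.7 and 29.4%, so that 3p led in every sow. In miR-140, whose 3p strand often starts 1 base later, the 5p share fell from 28.1 ± 3.93% to 13.7 ± 2.41%. In miR-24 it went from 0.0618 to 1.15 ± 0.201%. In miR-199 the 5p share fell to 58.9, 57.0, 59.8 and 57.0% in sows 1 to 4. The mean 5p share fell from 97.0 to 85.9% in miR-145 and from 83.8 to 66.5% in miR-425, and rose from 78.5 to 86.7% in miR-411. Apart from miR-142 and miR-361, the leading arm stayed as it was.

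**Figure D4:**
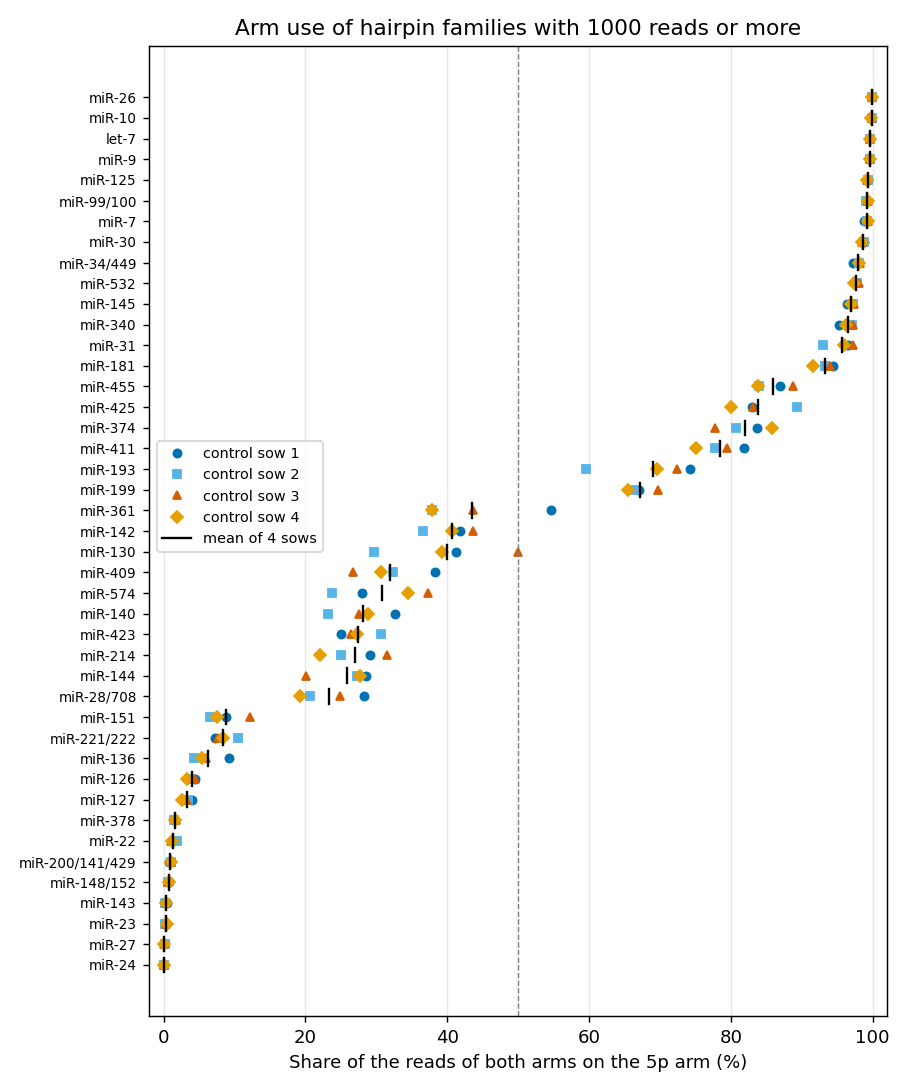
Share of reads with the exact start on the 5p arm (%) for 43 hairpin families with at least 1000 reads in sum, 1 symbol per sow and a bar at the mean of 4 sows. Most families lie near 0 or 100%, and the miR-361 family crosses the dashed line at 50%.

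The first base of the reads was T (U in the RNA), the base that Argonaute holds best, in 82.9, 85.7, 83.6 and 82.8% of the assigned reads. In the unassigned reads of 20 to 26 nt it was T in 29.3% on average. Counted by group and not by read, 144 of the 305 kept groups (47.2%) began with T. Of the 249 groups, 136 (54.6%) had a leading read of 22 nt, 58 one of 23 nt and 39 one of 21 nt.

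The reads of a miRNA differed among themselves at the 3′ end. With the end of the leading read as the reference, 51.6, 53.2, 51.5 and 51.7% of the assigned reads had exactly that read's 3′ end. A further 18.2 ± 0.665% were shorter and 16.7 ± 0.203% were longer. Reads with 1 added A made up 3.61% and reads with 1 added T (U) 5.48%. Without a hairpin sequence, a base that the precursor holds and a base added by a nucleotidyl transferase cannot be told apart. Reads of full length whose last base was C in place of the leading read's made up 5.54%.

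The miRNAs differed widely in how sharp this end was. The miR-20a group (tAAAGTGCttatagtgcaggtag) had the highest share at the leading end among the 50 most abundant groups, with 86.0, 82.9, 84.2 and 84.6%. The miR-148a group followed with 80.5, 80.8, 78.6 and 75.1%. At the other end, miR-339-5p (tCCCTGTCctccaggagctcac) had 24.8, 20.5, 20.6 and 24.1%, and the miR-200b group 26.5, 23.0, 23.6 and 25.996%. The gap between the sharp and the blurred ends was many times the spread between sows. An added A was most common in miR-29-3p (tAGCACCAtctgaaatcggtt), with 25.6, 26.4, 23.2 and 23.0%, and reached 19.6 ± 1.22% in the miR-125b group. An added T was most common in the miR-200a group, with 36.9, 33.6, 32.3 and 34.6%, and reached 27.5 ± 0.816% in member 4 of the miR-30 family, miR-30c, (tGTAAACAtcctacactctcagc). let-7b had an added T in 17.6 ± 0.928% of its reads and let-7i in 11.8 ± 0.462%.

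**Figure D5:**
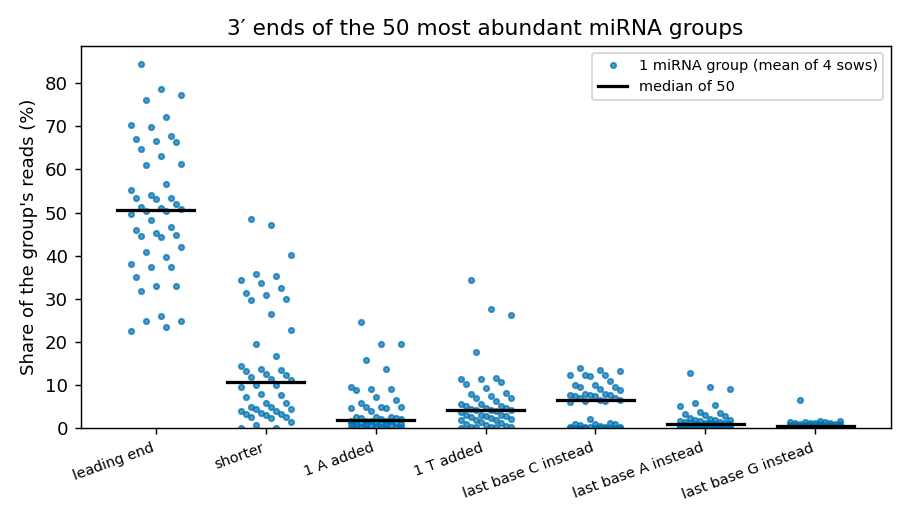
Share of a group's reads (%) by kind of 3′ end for the 50 most abundant miRNA groups, 1 point per group (mean of 4 sows) and a bar at the median of 50. The share at the leading end runs from 22.5 to 84.4%, and the highest added T is 34.3%.

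A change of the 5′ end moves the seed, and a few miRNAs had such forms at high levels. The shares below set a shifted form against the sum of both forms. miR-140-3p was most often 1 base shorter at its 5′ end. The shifted read is printed under the leading one, with the seed that each start gives in capitals.
miR-140-3p: tACCACAGggtagaaccacgga
miR-140-3p, start 1 base later: aCCACAGGgtagaaccacggac
miR-203-3p: gTGAAATGtttaggaccactag
miR-203-3p, start 1 base later: tGAAATGTttaggaccactagt
miR-101-3p: tACAGTACtgtgataactgaag
miR-101-3p, start 1 base earlier: gTACAGTActgtgataactga
miR-10-5p member 2: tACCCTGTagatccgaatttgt
miR-10-5p member 2, start 1 base later: aCCCTGTAgatccgaatttgtg

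The later start of miR-140-3p took 59.6, 60.7, 57.2 and 56.8% of both forms, the majority in every sow. That of miR-203-3p took 43.0, 56.6, 51.1 and 57.3%, so that the leading seed was the minority in 3 of the 4 sows. The earlier start of miR-199-3p took 27.03, 31.0, 32.4 and 26.9%, and that of miR-101-3p 27.04, 25.3, 24.8 and 30.8%. The miR-10a group had a later start in 21.5 ± 1.16% and the miR-10b group in 12.1 ± 0.438%. The 2 paralogues did not overlap in this share in any sow although their reads are alike at the 5′ end. For comparison, miR-21-5p had a later start in 1.52 ± 0.202% and let-7a in 1.65 ± 0.0960%.

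Some groups held a second form that differs at 1 internal base, named by the leading base, its position from the read's 5′ end counted from 1, and the changed base. Among them were known sites of A-to-I editing, which is read as G. miR-411-5p carried A5G in 9.44, 9.40, 10.5 and 9.84% of its reads, and miR-381-3p carried A4G in 5.88, 7.12, 7.44 and 6.83%. Both lie in the seed, so the edited form has another one:
miR-411-5p: tAGTAGACcgtatagcgtacg
miR-411-5p, A5G: tAGTGGACcgtatagcgtacg
miR-381-3p: tATACAAGgacaagctctctgt
miR-381-3p, A4G: tATGCAAGgacaagctctctgt

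miR-379-5p, a neighbour of miR-411 in the DLK1-DIO3 region, carried A5G in 1.38, 3.35, 2.59 and 1.23%, from 10 to 38 reads per sow. The median A-to-G share over all 570 sites examined was 0.241%, and all 3 named sites lay above it in every sow. So did A11G in a let-7 group with the letters of miR-98 (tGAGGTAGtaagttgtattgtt), at 4.23, 2.40, 3.36 and 3.96%. Its changed read also differs by 1 base from let-7a, a far more abundant group. Changed reads of miR-98 and of let-7a therefore cannot be told apart there. In miR-26-5p the form with T10C alone took 3.35, 0.181, 3.60 and 2.10%, low in sow 2. A further form, which has A16T as well and is not counted in these shares, had 1, 419, 1 and 338 reads. It made up 0.0337, 77.6, 0.0313 and 15.2% of the reads of both T10C forms together, so that the 2 forms were split by sow. Genomic variants and other origins of these forms were not tested.

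The library of sow 3 differed from the others at read position 4. In all 42 groups with G at position 4, the form G4T made up 2.47 to 6.42% of the reads in sow 3 (median 4.79%), and at most 0.148% in any other sow. Those groups, let-7 and miR-143-3p among them, hold 30.8% of the assigned reads of sow 3. The G4T share of their own reads, 2.47 to 6.42%, is missing from their levels there. In 26 further groups with T there, T4G made up 1.14% in sow 3 and at most 0.0165% in any other sow. Smaller differences lay at position 6, where C6A made up 0.151% in sow 3 against at most 0.0204% elsewhere and A6C 0.140% against at most 0.0602%. The cause was not tested. Counting reads with 1 mismatch at position 4 moved the mean over sows of none of the compartment lists by more than 1 SD. That check sets a mean of 4 sows against the spread between sows, so it could hardly show a change in sow 3 alone. It did not cover let-7.

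Outside the named miRNA groups, other reads filled each length window, and most of the leading ones were recognised as fragments of longer RNAs. The leading reads are printed here in lower case throughout because no seed is defined for them. Names of the source RNA are textbook recognition of the sequence, not a match to a reference.
Reads of 17 to 19 nt (28S rRNA 5′ end): cgcgacctcagatcaga
Reads of 20 to 26 nt (no name given): atatttgtgagaattctgatt
Reads of 27 to 29 nt (snoRNA-like): atgtgtgatgatgatcaaagatctgata
Reads of 30 to 34 nt (tRNA-Gly 5′ fragment): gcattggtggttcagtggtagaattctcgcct
Reads of 30 to 34 nt (5S rRNA 3′ end): ccgcctgggaataccgggtgctgtaggctt
Reads of 35 to 39 nt (U1 snRNA 3′ end): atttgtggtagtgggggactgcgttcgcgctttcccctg
Reads of 40 to 49 nt (28S rRNA 3′ end): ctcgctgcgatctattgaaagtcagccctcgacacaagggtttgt

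The 17 nt piece of the 28S rRNA 5′ end had 4169, 3244, 6381 and 14356 RPM (reads per 1000000 of all reads) in sows 1 to 4. Reads that share its first 15 bases made up 2.29, 1.61, 2.57 and 4.61% of all reads, and 54.1% of them were 17 to 19 nt long. They were most abundant in sow 4, which had the most reads of that length. The leading unnamed read of 20 to 26 nt had 3441, 4202, 5927 and 5021 RPM and, unlike the 28S rRNA 5′ end, had 99.7% of its reads in that single window. Whether it is a piece of a longer RNA or a miRNA with an unlisted seed was not tested.

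Reads of 30 to 34 nt made up 16.4, 13.6, 13.9 and 14.3% of each library, and a 5′ fragment of tRNA led them. Such fragments are cut in the anticodon loop, a cleavage known from stressed cells and from reproductive tissues. The tRNA-Gly fragment had 15020, 10115, 14809 and 11941 RPM, and reads with its start were 18.3% of the window. It was lowest in sow 2. The 5S rRNA end had 4262, 4376, 5432 and 4819 RPM. The tRNA-Gly fragment was thus the more abundant in every sow, and the 5S rRNA end was higher in sows 3 and 4 than in sows 1 and 2.

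In the longer windows the leading reads were higher in sows 1 and 2, though not every read was. The U1 snRNA end had 18308, 11805, 4690 and 8070 RPM, higher in sows 1 and 2. The 28S rRNA 3′ end had 4167, 5852, 379 and 386 RPM, over 10 times higher in both of sows 1 and 2 than in sows 3 and 4. A 44 nt piece of the 5S rRNA end had 4226, 4727, 463 and 583 RPM, with the same split. A 36 nt piece of the 28S rRNA 5′ end, at 2434, 1859, 1646 and 2654 RPM, was highest in sow 4.

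Reads of 40 to 49 nt also held 2 miRNAs joined end to end. Such reads numbered 3981, 6004, 357 and 434, which is 0.421, 0.570, 0.264 and 0.138% of the window. They were not spread over miRNAs by abundance. miR-22-3p followed by miR-21-5p accounted for 2261, 4069, 230 and 241 of them, 56.8, 67.8, 64.4 and 55.5% in sows 1 to 4, and the reverse order for 1 read. miR-22-3p was the first part of 56.9% of the joined reads in sow 1, although it ranked 38 among the miRNA groups. miR-21-5p, which ranked 1, was the first part in 2.59%. The leading joined read is shown with miR-22-3p in lower case and miR-21-5p in capitals. It had 815, 1721, 69 and 72 reads.
miR-22-3p then miR-21-5p: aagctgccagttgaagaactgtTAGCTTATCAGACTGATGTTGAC

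Single fragments could also be the mark of 1 sow. A 29 nt fragment with A at base 28 had 4502, 4535, 4868 and 1 reads, and its form A28T had 2, 4, 6 and 913. The T form thus made up 99.9% of both in sow 4 and at most 0.123% in the other sows. A longer fragment of 34 nt with the same 3′ end had its form A33T at 99.9% in sow 4 and at most 0.306% elsewhere.
Fragment of 29 nt: atttgctgttgagactcggaaatctgaAt
Fragment of 29 nt, A28T: atttgctgttgagactcggaaatctgaTt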

How the data were processed

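Small RNA of 4 control libraries was analysed from the deposited tables, in which the authors list each distinct read with its raw count and no normalization. Per the submitters' processing notes, the pig build Sscrofa10.2, the other builds GRCm38, UMD3.1 and GRCh37.p5, and the tool FastQC are listed without a role. The aligner and the trimming are not given in the sources used here. Members and lists were chosen with earlier results of these data known.

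The plan named miRNAs by the first 20 nt of a mature miRNA. No mature miRNA table was used here, so reads of 20 to 26 nt were grouped by their first 20 nt and named by seed from 215 listed seeds, 48 of which were added after the reads were seen. Reads of 18 and 19 nt could not be assigned. Groups under 10 reads and groups found in longer reads at 0.1 or more per read were left out. So were 1-base and shared-start (13 bases) forms of groups 20 times larger. Forms shifted by up to 2 bases from any larger group with a listed seed, or by up to 4 bases from a group 20 times larger, were left out as well. The leading read's end stands for the reference 3′ end. On simulated data, 100 of 100 miRNAs were recovered, with 0 false, and 60 of 60 fragments were left out. The simulated sequences were random, held no paralogues, and had variants, shifted forms and fragments set within the limits of these rules. That score shows that the rules ran as written and does not measure accuracy on the real reads.

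The genes named are the 30 most abundant groups, up to 6 of each list, the hairpins with the most reads or with both arms filled, the extremes of 3′ ends and of variation, and the leading reads of each length window. One of these reads is not reported here. 5′ starts, arm shares with shifted starts, internal changes and joined reads were added after the data were seen. Alternatives covered matching, filters, totals, TMM and size factors, and leaving out sows. Python 3.11.15, numpy 2.4.6, R 4.3.3, edgeR 4.0.16 (TMM factors only) and DESeq2 1.42.0 (size factors only) were used.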

Additional observations from a re-analysis of the deposited data

Results flagged for a closer look

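Of 112 values tested over the 4 sows, 7 had 1 sow far from the other 3, by a rule that chance alone meets in about 1 in 20 groups. At that rate, chance alone gives a number of flags close to the one found. Some values had been picked from these same sows as extremes of variation, both miR-146-5p groups among them, so the rate does not hold for those. Sow 1 was high in the summed endothelial list, with 10979 CPM against 8775 to 9013 in the others, and in miR-126-3p, which makes up most of that list, with 10488 CPM against 8436 to 8615. Sow 4 was high in the leukocyte list, with 2735 CPM against 1319 to 1521, and in both miR-146-5p groups of that list, with 1670 CPM against 366 to 539 and with 474 CPM against 177 to 210. Sow 4 was low in the miR-30e group, the third miR-30-5p member, with 8344 CPM against 10243 to 10624. Sow 2 had 53.2% of its assigned reads at the leading 3′ end, against 51.5 to 51.7%.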

How the results depend on the processing

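The 24 alternatives include leaving out each sow in turn, which is given apart below. Under the others, 136 values moved by less than 1 SD or, for the number of groups, by less than 1.5 times, and 18 moved further. The share of reads outside 18 to 26 nt does not use the assignment, so it could not move with matching or filters. Against 249 groups at 10 CPM, 303 had 1 CPM or more and 199 were left without the seeds added later. The share of reads at the leading 3′ end was 50.3% with the first 18 nt, 50.6% with 1 mismatch at positions 9 to 20, 49.002% with starts 1 nt off counted, and 50.3% as a median over 50 groups. Relative to all reads of 18 to 26 nt, the epithelial, stromal, smooth muscle, endothelial, erythroid and leukocyte lists stood at 42384, 24928, 57078, 5487, 1392 and 999 CPM, and relative to all deposited reads at 25121, 14513, 33015, 3202, 828 and 593 CPM, since the total is larger. The 5p share was 50.8% as a mean over hairpin families, and counting shifted starts changed the leading arm of miR-142 and miR-361. With every group of a listed seed kept, 795 groups in place of 249 had 10 CPM or more, because 1-base variants then count.

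Leaving out 1 sow at a time, the assigned share was 56.8 to 60.7%, the groups at 10 CPM 246 to 249, the share of the 10 leading groups 55.4 to 58.2%, the 5p share 67.8 to 69.2%, the share at the leading end 51.6 to 52.1%, and reads outside 18 to 26 nt 38.5 to 43.9%. The lists ranged over 67308 to 79860 (epithelial), 40266 to 45726 (stromal), 91733 to 102650 (smooth muscle), 8859 to 9594 (endothelial), 2249 to 2574 (erythroid) and 1431 to 1903 CPM (leukocyte). Pig miRNAs alone could not be run without a table, and starts 1 nt off were found without a hairpin. No paired analysis was possible because 1 group was described. Near 1 CPM, counts of a few reads limit precision.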
